A study of Mus musculus with 177 samples.

Results

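The genes described here are 42 that encode the machinery of DNA replication, out of 19937 genes measured. They were taken by name: a member is a gene of the replication list that has a probe set annotated to it alone, and the brightest such probe set in a tissue stood for a member that had several. All 42 were measured in lung, brain and eye. In the groups without hypoxia, their mean levels lay above those of 70.0% of genes in lung, 62.0% in brain and 62.4% in eye at the median member. In lung that share ran from 19.4% for Orc1 to 97.4% for Pcna, so most members were in the upper part of the array's range.

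DNA is copied once per cell cycle from origins that the origin recognition complex (Orc1 to Orc6) marks. Cdc6 and Cdt1 load the ring of Mcm2 to Mcm7 there, which becomes the replicative helicase when Cdc45 and the GINS proteins join it. Polymerases, a sliding clamp, the clamp loader, a single-strand binding protein and a ligase then follow the fork. Genes of this machinery are transcribed mainly as cells pass from G1 into S phase, largely under E2F factors, and their levels are widely read as a mark of dividing cells. In a newborn mouse the lung is forming alveoli, the cerebellum still makes granule neurons and the retina is finishing its last divisions.

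The study exposed C57BL/6 mice at postnatal day 7 to gas with an inspired oxygen fraction of 0.08 (hypoxia) or to air at 0.21 (normoxia) for 120 min. A phase of 30 min at 21, 40, 60 or 100% oxygen followed, then 150 min in air, after which the tissues were collected. The hypoxia groups are called H21, H40, H60 and H100 and the normoxia groups N21 and N100, after the oxygen of the 30 min phase, so every group shared the strain, the age and the final period in air. No transgene or drug is named in the labels, and whole lung, brain and eye were measured, in which fewer cells of a type and less RNA per cell cannot be told apart. The design text gives 62 randomized mice. Each array of a tissue was taken as its own animal, which the labels do not state for each array, and the labels do not say which arrays of different tissues came from the same mouse.

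Of the 177 arrays, 174 had the profile of the tissue on their label. The arrays labelled Lung H40 replicate 10, Brain H40 replicate 7 and Eye H40 replicate 9 correlated best with brain, eye and lung respectively, and were left out. This kept 60 lung arrays (9 N21, 10 N100, 9 H21, 9 H40, 12 H60 and 11 H100), 58 brain arrays and 56 eye arrays, and among the kept H40 arrays the mean of 6 defining markers was 11.3 to 11.8 for type 2 alveolar cells in lung, 10.6 to 11.2 for neurons in brain and 12.6 to 13.2 for lens in eye. In 5 lung arrays (H21 replicates 1 and 6, H40 replicates 3 and 6, N21 replicate 5) the markers of thymocytes and lymphocytes stood more than 3 median absolute deviations above the lung median. The values of no 2 arrays were identical, but 1 pair in brain (H60 replicate 9 and H100 replicate 8) and 1 in eye (H100 replicate 7 and N21 replicate 6), each labelled as different groups, were closer than any other pair of their tissue. The SD over genes of the difference was 0.130 in the brain pair (next closest pair 0.175, median pair 0.329) and 0.161 in the eye pair (0.189 and 0.362). Without both pairs the counts of called members in brain and eye were 0, as with them. Brain H100 replicate 9 was kept in that fit, although it shared the lowest brain Rpa3 values with the brain pair. These were 5.80 in H60 replicate 9, 5.76 in H100 replicate 8 and 5.71 in H100 replicate 9, and the next lowest was 5.95. The labels do not say whether any of these arrays is a repeat. The sample records also fall into a first run of accession numbers (38 of the kept lung arrays) and later ones (22). N100 had 8 of its 10 lung arrays in the first run, and 11256 of 19937 genes differed between them in lung. The labels do not say what separates the runs, and results are given within each below.

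Sequence upstream of Mcm6 and Mcm5, which fell in lung, is given first, because genes of this machinery are transcribed largely under E2F factors. RefSeq promoter windows (build GRCm38.p6) were found for 35 of the 42 members, of which Pole was not one. The 250 bases before the start were searched on both strands for TTTCCCGC, TTTGGCGC, TTTCGCGC and TTTGCCGC, the E2F-type words, and for CCAAT, the CCAAT box. Words may overlap, since TTTGGCGC can share its last bases with GCGCGAAA, the reverse complement of TTTCGCGC. Both stretches below end before the annotated 5′ end of the gene, read 5′ to 3′ on the gene's own strand, and carry the E2F-type words in capitals.
Mcm6, chr1:128359706-128359955, minus strand: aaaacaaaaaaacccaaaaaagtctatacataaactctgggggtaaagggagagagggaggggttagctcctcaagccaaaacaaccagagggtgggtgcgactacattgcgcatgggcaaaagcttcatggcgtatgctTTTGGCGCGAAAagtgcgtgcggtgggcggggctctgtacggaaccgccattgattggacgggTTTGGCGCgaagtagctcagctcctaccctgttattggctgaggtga
Mcm5, chr8:75109259-75109467, plus strand: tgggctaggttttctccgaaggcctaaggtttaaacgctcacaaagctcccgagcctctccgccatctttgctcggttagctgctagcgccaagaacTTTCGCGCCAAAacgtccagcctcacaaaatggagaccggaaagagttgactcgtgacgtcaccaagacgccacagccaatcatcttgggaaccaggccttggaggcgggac
Mcm6 held 3 E2F-type matches, of which the pair that begins at bases 110 and 106 before the start overlaps, and the other begins at base 47. Mcm5 held an overlapping pair that begins at bases 153 and 149 before the start used here. The searched window of Mcm5 ends at position 75109508, inside the annotated gene. These positions are therefore not counted from the end of the printed Mcm5 stretch, which is shorter. Mcm7 held 1, GCGGGAAA, that begins at base 165 before the start used here, a position inside the annotated gene because another start lies further upstream. An E2F-type word was present in 9 of 35 members (25.7%), in 3 of 5 helicase genes and in 401 of 15613 windows of all genes (2.57%). A CCAAT box was present in 23 of 35 members (65.7%) and in 35.6% of all windows, and among the genes of G2 and mitosis in 15 of 17, where 1 of 17 held an E2F-type word. A match is a description of these letters and not a bound site.

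In lung, 3 of 6 helicase genes and 1 of 8 primase and polymerase genes fell after hypoxia, and 38 of 42 members did not pass the test. Over all 4 hypoxia groups against both normoxia groups, limma called 4 of 42 members at a Benjamini-Hochberg adjusted p under 0.05 over all genes, and all 4 fell: Mcm6, Mcm7, Mcm5 and Pole. Lower calls made up 0.607% of all genes, and calls in either direction 1.66%. Of the 42 members, 38 were below 0, while 44.2% of all genes were, and the median member change was -0.09 on the log2 scale against 0.01 for all genes. At an unadjusted p under 0.05, 17 members were lower and 0 higher, where 3.46% of all genes were lower by that measure. No member rose.

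The changes were small in size. The 4 members that fell stood at 81.9 to 86.3% of their normoxia level, and the hypoxia and normoxia arrays overlapped for each of them.

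**Figure D1:**
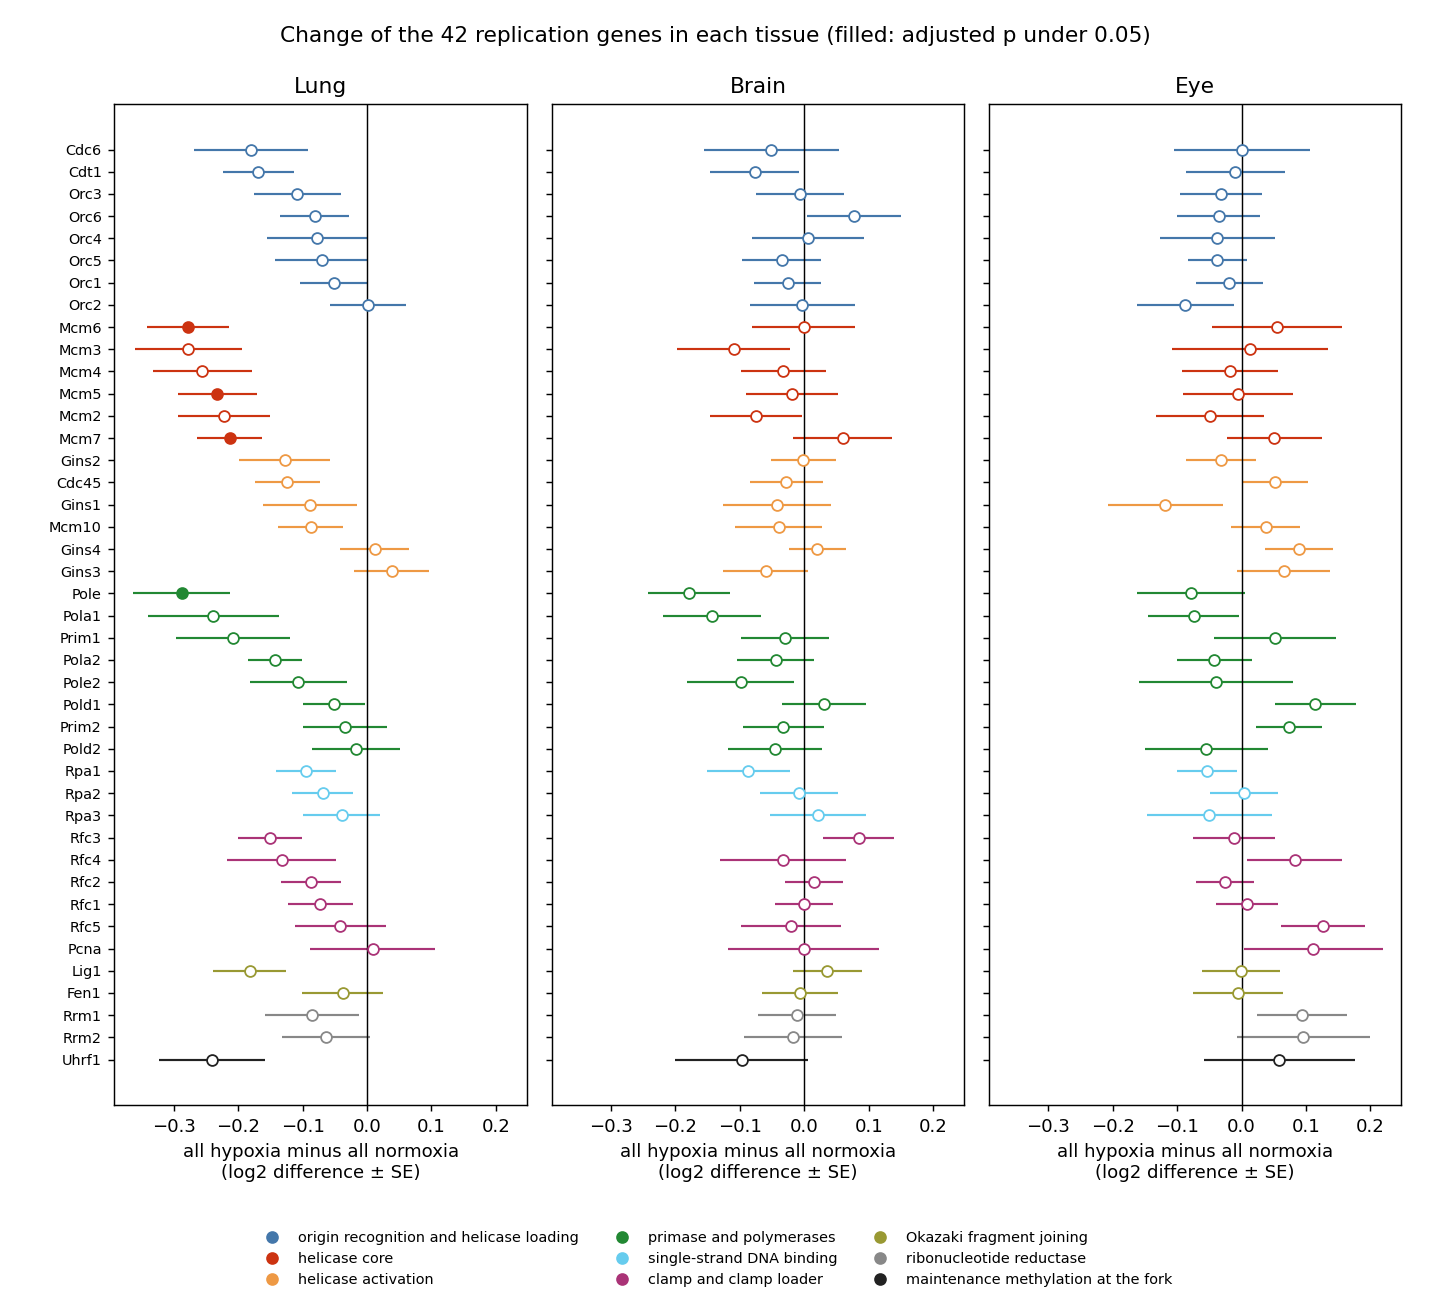
Each point is the log2 difference of a replication gene between all hypoxia and all normoxia groups, with its standard error, in lung, brain and eye; colour marks the role and filled points have an adjusted p under 0.05. In lung 38 of 42 points lie left of 0 and the filled ones are Mcm6, Mcm5, Mcm7 and Pole, while brain and eye have no filled point.

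The helicase ring, Mcm2 to Mcm7, had the lowest median of any role with more than 1 gene. All 6 of its genes were below 0, with a median of -0.24 and a range from -0.28 to -0.21, and all 6 had an unadjusted p under 0.05. Mcm6, Mcm7 and Mcm5 passed the adjusted threshold. Mcm3 (-0.28 ± 0.08, adjusted p = 0.0714), Mcm4 (-0.26 ± 0.08, adjusted p = 0.0752) and Mcm2 (-0.22 ± 0.07, adjusted p = 0.112) did not.

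Mcm6, a subunit of the ring, was measured at log2 levels from 8.33 to 9.22 in N21 lungs (median 8.94) and from 8.39 to 9.24 in N100 lungs (median 8.81). Its lowest, median and highest levels were 8.0, 8.55 and 8.84 in H21, and 8.22, 8.57 and 9.11 in H40. They were 8.32, 8.58 and 8.89 in H60, and 8.14, 8.56 and 8.86 in H100. The ranges overlapped, yet all 4 hypoxia medians lay below both normoxia medians and 36 of 41 hypoxia arrays lay below the normoxia mean. The change was -0.28 ± 0.06 (adjusted p = 0.00742), to 82.4% of the normoxia level.

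Mcm7, the subunit whose gene also hosts a microRNA cluster, ran from 8.12 to 8.86 in N21 (median 8.79) and from 8.28 to 8.78 in N100 (median 8.67). The lowest, median and highest values were 8.10, 8.36 and 8.51 in H21, and 8.37, 8.41 and 8.91 in H40. In H60 they were 8.21, 8.44 and 8.78, and in H100 8.02, 8.45 and 8.63. H40 had 1 array, replicate 3, above every normoxia array, and 39 of the 41 hypoxia arrays lay below the normoxia mean. Mcm7 fell by 0.21 ± 0.05 on the log2 scale (adjusted p = 0.0107).

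The genes around Mcm7 were measured by probe sets of their own. Mir25, Mir93 and Mir106b, whose hairpins lie inside Mcm7 on chromosome 5 in the RefSeq table, were at -0.01 ± 0.07, 0.00 ± 0.04 and -0.01 ± 0.04 in lung. Ap4m1, on the opposite strand, was at -0.10 ± 0.05 (adjusted p = 0.599). Its start lies 138 bases from the Mcm7 start used for the promoter search. The annotated genes overlap, since Ap4m1 begins at 138172021 and Mcm7 reaches to 138172111. These genes were chosen for their position after the values were seen, none was called, and a probe set on a hairpin does not measure the mature microRNA alone.

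Mcm5, a further ring subunit, ran from 7.84 to 8.55 in N21 (median 8.33) and from 7.89 to 8.59 in N100 (median 8.19). The lowest, median and highest levels were 7.32, 7.97 and 8.54 in H21, and 7.90, 8.04 and 8.34 in H40. They were 7.83, 7.96 and 8.33 in H60, and 7.58, 8.03 and 8.18 in H100. H21 was the most spread group and held both the lowest Mcm5 value and one near the top of the normoxia arrays. The change was -0.23 ± 0.06 (adjusted p = 0.0271), with 36 of 41 hypoxia arrays below the normoxia mean.

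Pole, the catalytic subunit of polymerase epsilon, which copies the leading strand, ran from 6.88 to 7.54 in N21 (median 7.20) and from 6.74 to 7.66 in N100 (median 7.08). The lowest, median and highest levels were 6.34, 6.80 and 7.25 in H21, and 6.55, 6.92 and 7.17 in H40. H60 gave 6.68, 7.02 and 7.41, and H100 gave 6.29, 6.90 and 7.64. H100 spanned nearly the whole range of both classes. The change was -0.29 ± 0.08 (adjusted p = 0.0272), and 36 of 41 hypoxia arrays lay below the normoxia mean.

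**Figure D2:**
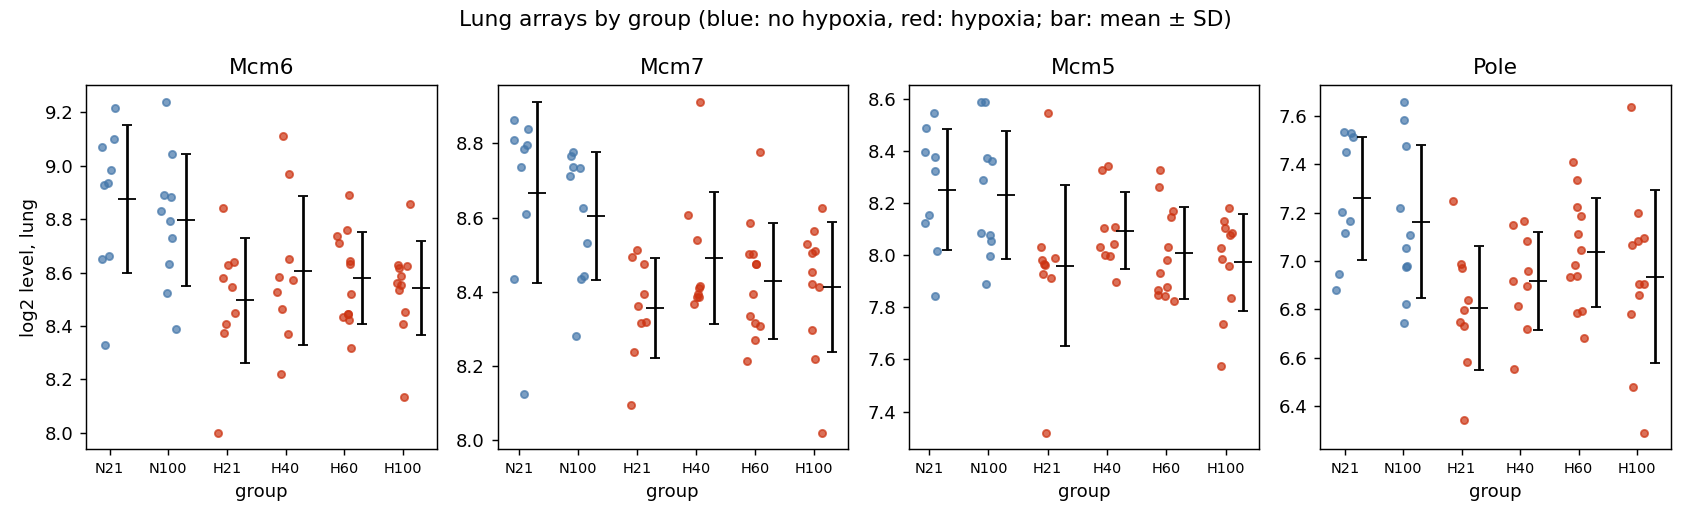
Each point is the log2 level of Mcm6, Mcm7, Mcm5 or Pole on a lung array, by group, with the group mean and SD beside it; blue groups had no hypoxia. The hypoxia groups overlap the normoxia groups but their means are lower, for Mcm6 8.50 to 8.61 against 8.80 and 8.88.

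The call of 4 members depended on single libraries. Without N100 replicate 2 or without N21 replicate 3 the count was 2, and without N21 replicate 1, N21 replicate 2, H40 replicate 2 or H100 replicate 6 it was 7. The share of all genes called with an array left out is not given here. These counts therefore do not show whether the members moved apart from other genes. Mcm6 and Mcm7 were called with any 1 of the 60 arrays left out, Mcm5 in 56 of 60 cases and Pole in 53. Without the 5 arrays high in lymphocyte markers 3 were called, since Pole no longer passed (-0.27, adjusted p = 0.0626). With the array of another tissue included, Mcm6 and Mcm7 were called. The share of all genes called is not given for these fits either, so the same limit holds.

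Within the record runs the direction held and the calls did not. In the first run 0 of 42 members were called by limma, against 0.115% of all genes, and 4 had an unadjusted p under 0.05, all lower, against 2.62% of genes that were lower by that measure. In the later runs 0 were called, against 0.191% of genes, and 20 had an unadjusted p under 0.05, all lower, against 2.84%. Mcm6 was at -0.20 ± 0.08 (adjusted p = 0.563) in the first run and -0.40 ± 0.09 (adjusted p = 0.0631) in the later ones. Mcm7 was at -0.16 ± 0.07 and -0.33 ± 0.08, Mcm5 at -0.16 ± 0.08 and -0.40 ± 0.08, and Pole at -0.23 ± 0.09 and -0.34 ± 0.10. With the run as a block in the fit of all lung arrays, 5 members were called, against 2.21% of genes. With array quality weights, which count a noisy array less, 9 were called, all lower, where lower calls made up 1.37% of genes and all calls 4.18%.

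Around the ring, the genes that load it were less clearly separated. Of the 8 genes of origin recognition and loading, 7 were below 0, with a median of -0.08, and 0 were called. Cdt1, the loading factor that is degraded once S phase starts, was at -0.17 ± 0.05 (adjusted p = 0.118), and Cdc6, its partner, at -0.18 ± 0.09 (adjusted p = 0.539). The 6 Orc genes ran from -0.11 to 0.00. Of the 6 genes that activate the helicase, 4 were below 0 and 2, Gins3 and Gins4, above. Cdc45, which joins the ring when it fires, was at -0.12 ± 0.05.

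At the fork, all 8 primase and polymerase genes were below 0, with a median of -0.12, and 4 of them had an unadjusted p under 0.05. Pola2, the regulatory subunit of the polymerase that lays down primers, was at -0.14 ± 0.04 (adjusted p = 0.0677), and Pola1, its catalytic subunit, at -0.24 ± 0.10. The delta polymerase genes Pold1 and Pold2 were at -0.05 ± 0.05 and -0.02 ± 0.07. The 3 genes of the single-strand binding protein lay between -0.09 and -0.04. Of the 6 clamp and clamp loader genes 5 were below 0, with Rfc3, a clamp loader subunit, at -0.15 ± 0.05 (adjusted p = 0.13). Lig1, the ligase that joins Okazaki fragments, was at -0.18 ± 0.06 (adjusted p = 0.0923) and Fen1, the flap nuclease that trims them, at -0.04 ± 0.06. Rrm1 and Rrm2, the subunits of ribonucleotide reductase, were at -0.09 and -0.06. Uhrf1, which recruits the maintenance methyltransferase to new DNA, was at -0.24 ± 0.08 (adjusted p = 0.162).

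Pcna, the sliding clamp, had a pair of probe sets that disagreed in lung. The one used here, with the higher mean level (10.5), gave 0.01 ± 0.10, and the other, with a mean level of 10.3, gave -0.23 ± 0.05 (adjusted p = 0.00493 when every probe set was tested). Processed copies of Pcna exist in the mouse genome, so what the brighter probe set reads is uncertain, and the change of Pcna in lung depends on the probe set. Pcna is counted among the 38 members that did not pass by its brighter probe set only. The probe sets of Rpa3 gave -0.04 ± 0.06 and 0.09 ± 0.06 in lung. The first of these was the brighter in lung and eye and the other in brain, so Rpa3 within brain was read by a different probe set.

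The order of the group means gave a second view that needs no threshold on p. In lung, all 4 hypoxia group means were below both normoxia group means for 22 of 42 members, against 8.42% of all genes. All 6 helicase genes were among the 22, with Cdc45, Cdc6, Cdt1, Lig1, Uhrf1, Pola1, Pola2, Prim1 and Pole. The opposite order was found for 0 members and for 13.2% of genes. In brain 2 members, Cdt1 and Pole, had the lower order against 5.88% of genes, and in eye 2, Gins1 and Pola2, against 5.93%. In lung the count was 13 within the first run (5.91% of genes) and 26 within the later ones (8.46% of genes). It was 21 without the arrays high in lymphocyte markers (8.87% of genes).

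Each lung group was also compared with its air control. After reoxygenation in air, H21 against N21, the members had a median of -0.16, the lowest of these comparisons, and limma called 0 of 42, against 0.0502% of genes. Unadjusted, 14 members had p under 0.05, all lower, against 5.49% of genes in either direction (468 of 19937 genes were lower). Pole was at -0.45 ± 0.13 (adjusted p = 0.222), Mcm6 at -0.38 ± 0.11 (adjusted p = 0.248) and Mcm7 at -0.31 ± 0.09 (adjusted p = 0.214). With array quality weights 3 were called here, Mcm5, Mcm6 and Mcm7, and 0.707% of genes.

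H40, H60 and H100 against N21 gave medians of -0.12, -0.10 and -0.13, and 0 members were called in each, against 0.00502%, 0% and 0.0201% of genes. Unadjusted p under 0.05 was found for 6, 9 and 12 members, all lower, against 4.67%, 3.49% and 3.39% of genes in either direction. Of all 19937 genes, 261, 187 and 200 were lower by that measure. The members with the smallest p were Pole, Pola2 and Mcm6 in H40 (-0.34 ± 0.13, -0.18 ± 0.07 and -0.27 ± 0.11). In H60 they were Rpa2, Mcm7 and Mcm6 (-0.22 ± 0.08, -0.24 ± 0.08 and -0.30 ± 0.10). In H100 they were Mcm6, Mcm7 and Mcm5 (-0.33 ± 0.10, -0.25 ± 0.08 and -0.28 ± 0.10). These comparisons share the N21 arrays, so their values are set side by side only.

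No member was called for the oxygen given in the 30 min phase. The change from 21 to 100% along the slope within the lung hypoxia groups had a median of 0.01 over the members and 0.00 over the helicase genes, with 0 called (0% of genes). Only Rfc2, a clamp loader subunit, had an unadjusted p under 0.05 (0.16 ± 0.07), against 1.74% of genes. The next smallest p were those of Orc6 (0.10 ± 0.08) and Rpa3 (0.11 ± 0.09). Without hypoxia, N100 against N21 had a median of -0.02 with 0 called (0% of genes), and 1 member had an unadjusted p under 0.05 (Rpa2, the middle subunit of the single-strand binding protein, at -0.19 ± 0.08), against 1.65% of genes. Rrm2 was at -0.22 ± 0.11 and Rfc5 at -0.19 ± 0.12.

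H100 against N100 compares hypoxia at equal oxygen with arrays that the N21 comparisons did not use as controls. Its H100 arrays are those compared with N21 above. Its N100 arrays also entered N100 against N21 and the comparison over all groups, so it is not independent of these. The median was -0.10, and 34 of 42 members were below 0, where 48.8% of all genes were. Of the members 0 were called, against 0.105% of genes. Unadjusted, 8 members had p under 0.05, all lower, and 6 of the 8 were the helicase genes. Over all genes it was 5.96% in either direction, with 507 of 19937 lower. Mcm3 was at -0.35 ± 0.13, Mcm4 at -0.32 ± 0.12 and Mcm5 at -0.26 ± 0.10 (adjusted p from 0.532 to 0.539).

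**Figure D3:**
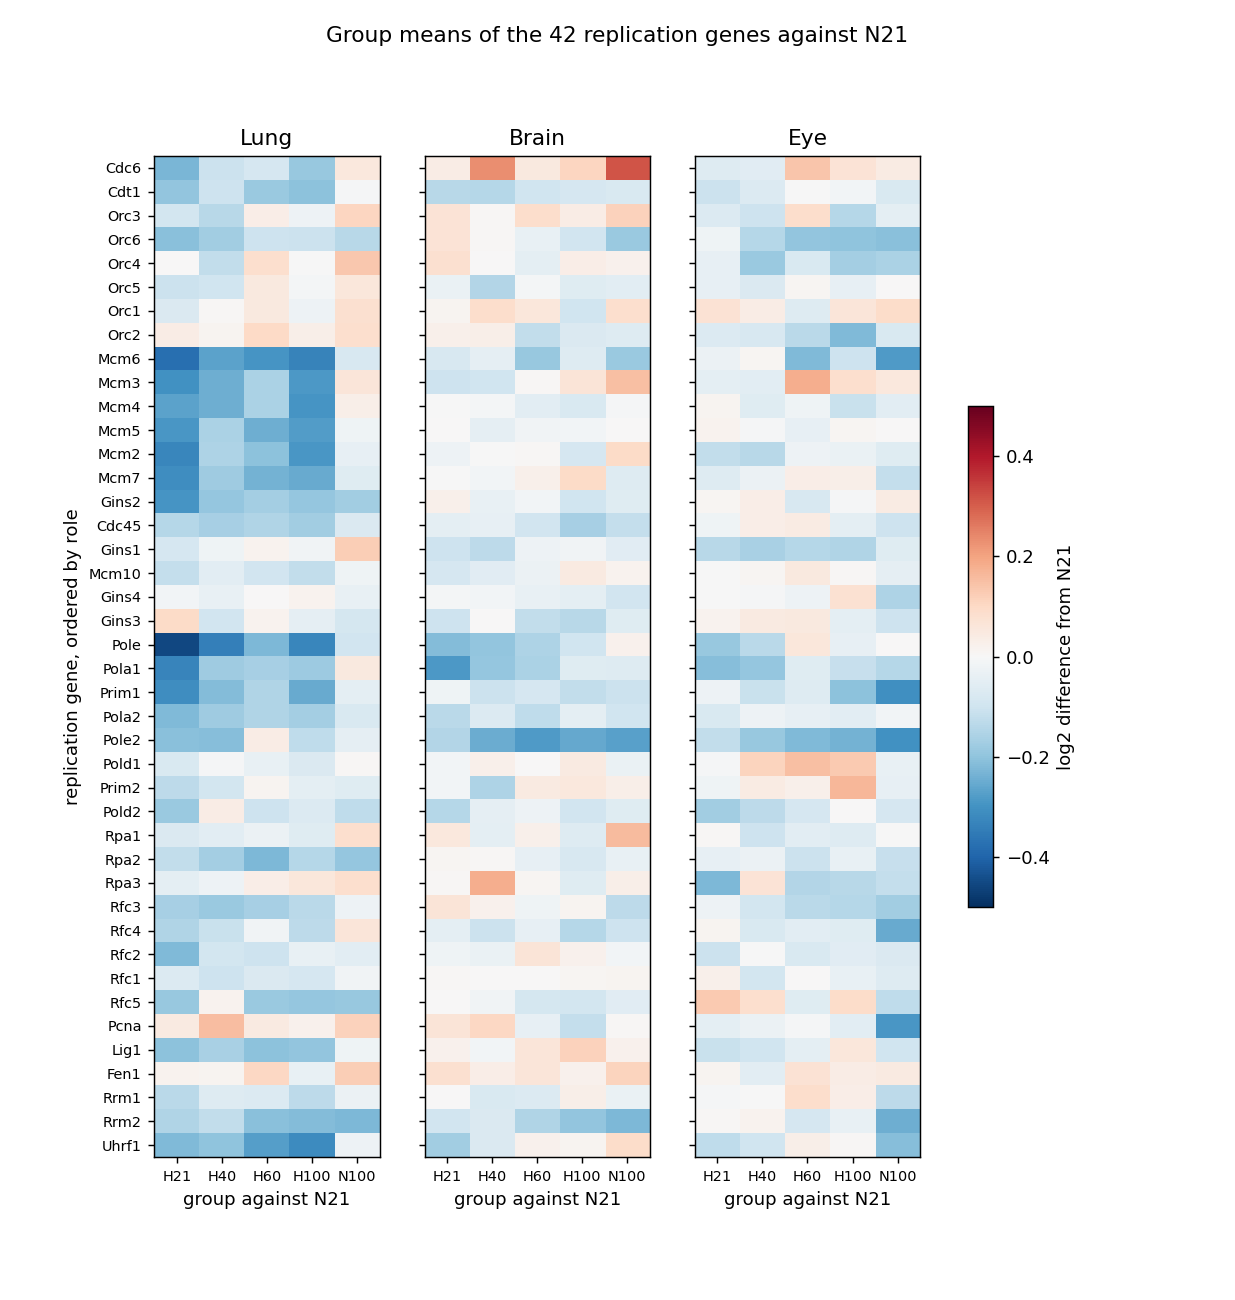
Colour gives the log2 difference of each group mean from N21 for the 42 replication genes, ordered by role, in lung, brain and eye. The helicase rows of lung are blue in all 4 hypoxia columns (medians from -0.31 in H21 to -0.21 in H40) and pale in N100 (median -0.03).

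The helicase genes also varied together among lungs of the same group. After each group mean was removed, the 60 lung arrays gave a Pearson correlation with Mcm6 of 0.793 for Mcm5 (Spearman 0.772), 0.771 for Mcm2 (0.769), 0.716 for Mcm7 (0.667), 0.681 for Mcm4 (0.682) and 0.667 for Mcm3 (0.680). The permutation p of each of these 5 relations was 1e-05, the smallest that 100000 permutations can give, before and after Benjamini-Hochberg adjustment. Without the 2 arrays farthest from the Mcm6 median, r lay between 0.653 and 0.747. Within the first run r lay between 0.610 and 0.888 and within the later runs between 0.518 and 0.766. These deviations share array, RNA sample and normalization. The permutations moved values freely over all 60 arrays, across record runs. Correlations of Mcm6 with other genes are not given, so these values do not show a relation particular to the helicase genes.

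**Figure D4:**
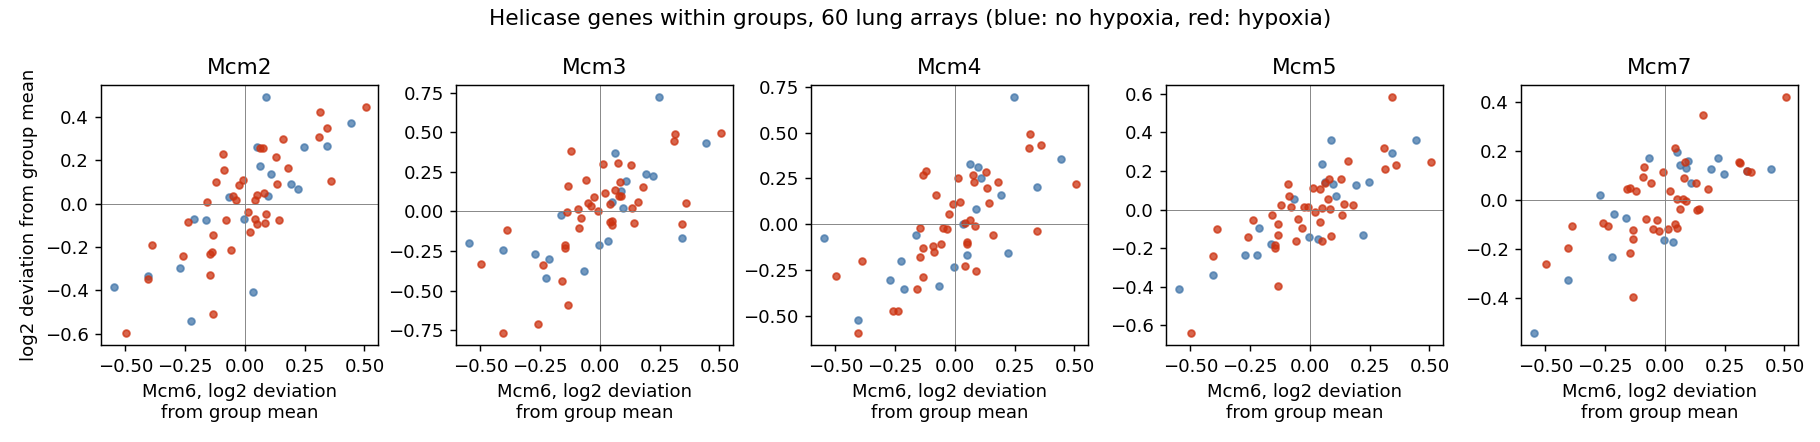
Each point is a lung array; the x axis gives the log2 deviation of Mcm6 from its group mean and the y axis that of Mcm2, Mcm3, Mcm4, Mcm5 or Mcm7, blue for normoxia and red for hypoxia. The points rise together in every panel, with r from 0.667 to 0.793.

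In brain, 0 of 42 members were called by limma over all hypoxia against all normoxia, against 0.0853% of genes. The median was -0.02, and 33 of 42 members were below 0, where 52.2% of all genes were. Of the members 1, Pole, had an unadjusted p under 0.05, against 3.18% of genes. The helicase genes had a median of -0.03 and ran from -0.11 to 0.06. The members named by smallest p were Pole, Pola1 and Rfc3.

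Brain Pole had its lowest, median and highest levels at 6.01, 6.15 and 6.32 in N21 and at 5.86, 6.16 and 6.52 in N100. They were 5.50, 5.92 and 6.49 in H21, 5.59, 5.98 and 6.37 in H40, 5.60, 6.02 and 6.47 in H60, and 5.79, 6.04 and 6.34 in H100. The hypoxia medians were lower and the ranges overlapped. The change was -0.18 ± 0.06 (unadjusted p = 0.00662, adjusted p = 1.00), with 32 of 40 hypoxia arrays below the normoxia mean. Pola1 had medians of 6.52 and 6.49 in N21 and N100, and of 6.21, 6.44, 6.42 and 6.55 in H21, H40, H60 and H100, over arrays from 5.60 to 7.04. Its change was -0.14 ± 0.08. Rfc3 had medians of 7.46 and 7.43 in N21 and N100, and of 7.46, 7.54, 7.54 and 7.51 in the same hypoxia groups, over arrays from 7.14 to 7.98. Its change was 0.08 ± 0.06, above 0.

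The 7 other brain comparisons gave 0 called members each. The share of all genes called was 0.01% for H100 against N100 and 0% for the rest. Members with an unadjusted p under 0.05 numbered 2 in H21 (Pola1 at -0.29 ± 0.13 and Pole at -0.22 ± 0.11; 1.33% of genes), 0 in H40 (1.76%), 1 in H60 (Pole2, a polymerase epsilon subunit, at -0.28 ± 0.13; 3.22%) and 0 in H100 (3.47%). They numbered 0 in N100 against N21 (4.04%), 2 in H100 against N100 (Orc1 at -0.18 ± 0.08 and Rpa1 at -0.22 ± 0.10; 4.55%) and 0 along the slope (6.45%).

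In eye, 0 of 42 members were called over all hypoxia against all normoxia, against 0.0853% of genes, and 0 had an unadjusted p under 0.05, against 5.02% of genes. The median was -0.01, with 23 of 42 members below 0, where 48.2% of all genes were. The helicase genes had a median of 0.00 and ran from -0.05 to 0.05. The members with the smallest p, Rfc5, Pold1 and Gins4, were above 0.

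Rfc5, a clamp loader subunit, had its lowest, median and highest levels in eye at 7.97, 8.33 and 8.57 in N21 and at 7.94, 8.16 and 8.45 in N100. They were 8.16, 8.45 and 9.12 in H21, 8.10, 8.32 and 9.03 in H40, 8.02, 8.27 and 8.60 in H60, and 8.0, 8.42 and 8.75 in H100. The groups overlapped throughout, and the change was 0.13 ± 0.07. Pold1, the catalytic subunit of polymerase delta, had medians of 7.15 and 6.96 in N21 and N100, and of 7.03, 7.14, 7.18 and 7.19 in H21, H40, H60 and H100, over arrays from 6.39 to 7.45. Its change was 0.11 ± 0.06, with 7 of 38 hypoxia arrays below the normoxia mean. Gins4, a subunit of the GINS complex, had medians of 8.35 and 8.17 in N21 and N100, and of 8.29, 8.30, 8.38 and 8.30 in the same hypoxia groups, over arrays from 8.02 to 8.92. Its change was 0.09 ± 0.05.

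The 7 other eye comparisons also gave 0 called members each, against 0.00502% of genes for H21 against N21 and 0% for the rest. N100 against N21 had the lowest median, -0.08, with 34 of 42 members below 0, where 45.8% of all genes were. That comparison had 1 member at an unadjusted p under 0.05 (Rfc4 at -0.25 ± 0.12, against 3.90% of genes). H100 against N100, which shares the N100 arrays with it, had a median of 0.03, with 3 members higher at an unadjusted p under 0.05 (8.70% of genes in either direction): Gins4 at 0.23 ± 0.08, Prim2, a primase subunit, at 0.21 ± 0.08 and Rfc5 at 0.22 ± 0.10. The numbers at an unadjusted p under 0.05 were 0 in H21 (2.25% of genes), 0 in H40 (2.11%), 0 in H60 (5.40%), 1 in H100 (Prim2 at 0.17 ± 0.08; 5.31%) and 1 along the slope (Prim2 at 0.18 ± 0.08; 5.71%). Prim2 was 7.62 and 7.60 in H100 replicates 8 and 9, where the next highest eye value was 7.29. H100 replicate 8 was also among the eye arrays that correlated less with the rest of their tissue. The part of these arrays in the Prim2 values was not tested.

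Whether the lung differed from the other tissues was tested as the difference of changes in a fit of all 174 arrays. For lung minus brain, 38 of 42 members were below 0, with a median of -0.09 against 0.0103 for all genes. Of the members 0 were called, against 0.451% of genes. The share of all genes below 0 is not given for the differences between tissues. Unadjusted, 6 had p under 0.05, all lower in lung, against 5.26% of genes in either direction (399 of 19937 genes were lower in lung). Rfc3 was at -0.23 ± 0.08 (adjusted p = 0.287), Mcm7 at -0.27 ± 0.10 (adjusted p = 0.349) and Lig1 at -0.22 ± 0.08 (adjusted p = 0.421). For lung minus eye, 38 were below 0, with a median of -0.12 against 0.0045 for all genes, and 0 were called, against 0.396% of genes. Unadjusted, 10 had p under 0.05, all lower in lung, against 5.80% of genes in either direction (469 of 19937 genes were lower in lung). Mcm6 was at -0.33 ± 0.12 (95% interval from -0.57 to -0.10, adjusted p = 0.364), Mcm7 at -0.26 ± 0.10 (adjusted p = 0.397) and Cdc45 at -0.18 ± 0.07 (adjusted p = 0.655). For brain minus eye 0 were called, against 0.01% of genes, and 0 had an unadjusted p under 0.05, against 2.98%. A fall limited to lung was thus not shown for any member by this fit. With array quality weights 2 members passed for lung minus brain (Mcm7 and Rfc3), with 1.47% of genes, and 2 for lung minus eye (Mcm6 and Mcm7), with 1.5% of genes. The arrays of different tissues entered as independent although some may come from the same mice.

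Other genes of the cell cycle in lung were described by lists, none of which overlaps the members. Of all 19937 genes in lung, 331 were called, 121 of them lower. At an unadjusted p under 0.05 there were 1794, 690 of them lower. Of 30 other replication factors 2 fell: Chaf1b, a subunit of the chromatin assembly factor that works behind the fork (-0.29 ± 0.06, adjusted p = 0.00231), and Pole4, a small polymerase epsilon subunit (-0.19 ± 0.05, adjusted p = 0.0385). A further 28 did not pass, 21 of the 30 were below 0, and the median was -0.03. Of 12 nucleotide supply genes 0 were called by limma, 3 had an unadjusted p under 0.05, all lower, and the median was -0.07. The smallest p were those of Cad, which starts pyrimidine synthesis (-0.14 ± 0.05), and Dtymk, thymidylate kinase (-0.16 ± 0.06).

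Of 28 regulators of the step from G1 to S, 1 fell and 1 rose, with a median of -0.10. Ccnd1, the cyclin D1 that drives G1 progression, fell by 0.41 ± 0.07 on the log2 scale (adjusted p = 0.000198). Cdkn1c, the cyclin-dependent kinase inhibitor p57, rose by 0.26 ± 0.06 (adjusted p = 0.0143). Of 21 genes of G2 and mitosis 0 were called and 0 had an unadjusted p under 0.05. Their median was 0.03, with 6 of 21 below 0 and a range from -0.04 to 0.10, and Plk1, a mitotic kinase, was at 0.10 ± 0.06 and Aurka, another, at 0.08 ± 0.06. Of 10 p53-induced genes 0 were called, 3 had an unadjusted p under 0.05, all higher, and the median was 0.10. Over all lung genes, 1794 of 19937 had an unadjusted p under 0.05, 690 of them lower. Sesn2 was at 0.16 ± 0.05 (adjusted p = 0.0871) and Btg2, an antiproliferative gene, at 0.17 ± 0.07.

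**Figure D5:**
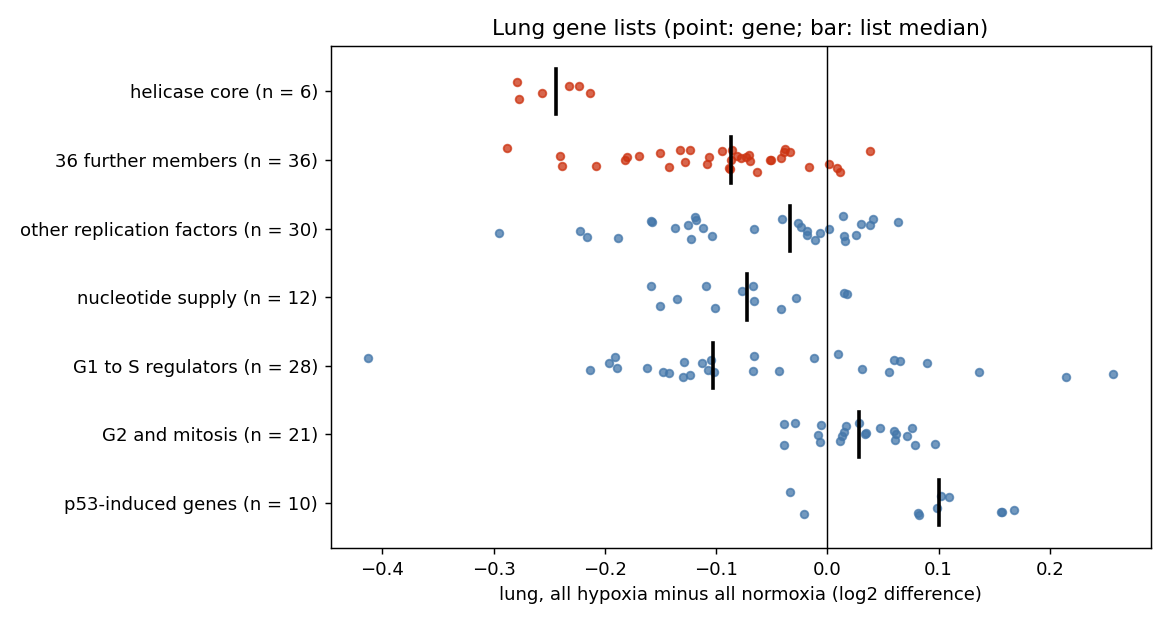
Each point is a gene's log2 difference between all hypoxia and all normoxia groups in lung, by list, and the black bar is the list median; red lists are the members, split into the 6 helicase genes and the 36 further members. The helicase median is -0.24 and that of the 36 further members -0.09, while the G2 and mitosis list sits at 0.03.

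In brain and eye no gene of these lists was called, against 0.0853% of all genes in each tissue. In brain, genes with an unadjusted p under 0.05 numbered 1 over the 5 lists (Cdk6, a G1 kinase, at 0.10 ± 0.05), against 3.18% of all genes. In eye, the 21 G2 and mitosis genes were all above 0, with a median of 0.14, while the replication members had a median of -0.01. Of all genes 48.2% were below 0 in eye. Of the 21 G2 and mitosis genes 0 were called in eye. Only 1 had an unadjusted p under 0.05 (Cenpa, the centromeric histone, at 0.20 ± 0.08), against 5.02% of all genes. E2f3, a transcription factor of the G1 to S step, was at -0.27 ± 0.06 in eye (adjusted p = 0.0641).

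Of the markers of other cells in lung, 1 neutrophil marker rose and 2 mesenchyme markers fell. Over all lung genes 1.66% were called, and 1794 of 19937 had an unadjusted p under 0.05, 690 of them lower. Of 8 neutrophil markers 1, the collagenase Mmp8, rose (0.91 ± 0.15, adjusted p = 0.000132), all 8 were above 0, and their mean level was 5.99 ± 0.34 (SD, n = 19, from 5.57 to 6.94) in normoxia and 6.29 ± 0.33 (SD, n = 41, from 5.80 to 7.17) in hypoxia arrays. Of 6 lung mesenchyme markers 2 fell, Wnt2 (-0.51 ± 0.12) and Fgf10 (-0.34 ± 0.08, both at adjusted p = 0.0106), and their mean was 10.40 ± 0.17 (from 10.01 to 10.67) against 10.28 ± 0.20 (from 9.86 to 10.65). Of 7 lymphocyte markers 0 were called or had an unadjusted p under 0.05, and their mean was 6.09 ± 0.21 (from 5.75 to 6.74) against 6.17 ± 0.52 (from 5.66 to 8.19). Of 5 erythroid precursor markers 0 were called by limma and 1, Rhag, had an unadjusted p under 0.05 (0.28 ± 0.13). Of 6 markers of type 2 alveolar cells 0 were called and 2 had an unadjusted p under 0.05, both higher, and their mean was 11.61 ± 0.09 (from 11.49 to 11.80) in normoxia against 11.67 ± 0.13 (from 11.24 to 11.84). Of 6 endothelial markers 0 were called and 1 was higher at an unadjusted p under 0.05, and their mean was 10.79 ± 0.16 (from 10.41 to 11.01) against 10.80 ± 0.15 (from 10.42 to 11.01). The part of these cells in the change of the replication genes was not tested.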

How the data were processed

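RNA from lung, brain and eye was measured on Affymetrix Mouse Gene 1.0 ST arrays. Per the submitters' processing notes, the deposited log2 values came from RMA, whose version is not given in the sources used here. RMA equalizes array distributions, which can hide a shift common to all genes. The medians of the deposited values (6.25 in lung, 6.07 in brain, 6.35 in eye) differ by tissue, so levels were not compared between tissues. Per the labels, 10 ng of total RNA was labelled per array; the extraction text names a blood kit, the design text solid tissue. Array number limits the precision, and no sequencing depth applies.

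Of 34760 probe sets, 21640 had 1 gene symbol, 1321 several and 11799 none; 21553 were matched to RefSeq, giving 19937 genes. Arrays correlating best with another tissue were left out. The model was run with limma 3.58.1 (lmFit, eBayes, two-sided) under R 4.3.3, with data.table (version 1.17.8), 6 groups per tissue, group means weighted equally, Benjamini-Hochberg adjusted over all genes at 0.05. A ± is a standard error unless marked SD. The fit was tested on simulated data.

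The members and lists were chosen with earlier results of these data known. Every called member is named, or the 3 with the smallest p; other lists give called genes (at most 4), else the 2 with the smallest p. Some genes of those lists and of the marker lists were not analysed here. Record runs come from the accession order alone. Alternatives were array weights, dim genes left out, renewed quantile normalization, replicate number, run and sex in the fit, single runs, every probe set, only the groups named, and arrays left out.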

Additional observations from a re-analysis of the deposited data

Results flagged for a closer look

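In 43 checks of a group of 9 or 10 arrays for an extreme value, over the members whose group values are given, 3 values stood apart from the rest of their group; chance flags about 1 in 20 groups. Mcm7 in lung was 8.91 in H40 replicate 3, where the next highest of 9 arrays was 8.61. That array had also the highest mean of the lymphocyte markers in lung, 8.19 against a lung median of 6.01. Rfc5 in eye was 9.12 in H21 replicate 1, where the next highest was 8.57. Pold1 in eye was 6.53 in H21 replicate 9, where the next lowest was 6.94. That array stood apart on other members too: it, H40 replicate 8 and N21 replicate 7 had the 3 highest eye values of Orc2 (8.96, 9.06 and 8.91, next 8.31), Orc4 (9.09, 9.21 and 8.91, next 8.65) and Rpa3 (7.77, 8.01 and 7.96, next 7.42). All 3 are among the eye arrays that correlated less with the rest of their tissue, without which 0 members were called in eye, as with them. Brain had such arrays in the same groups: N21 replicate 7, H21 replicate 8 and H40 replicate 10. They had the 3 highest brain values of Orc2 (8.697, 8.727 and 8.784, next 8.058) and Orc6 (9.607, 9.715 and 9.632, next 9.086). They are also among the brain arrays that correlated less with the rest of their tissue. No member's change differed between tissues at an adjusted p under 0.05.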

How the results depend on the processing

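The count of called members in lung over all hypoxia against all normoxia (4) was 9 with array quality weights, 7 without the dimmest 40% of genes and 2 with the arrays of another tissue included. It was 0 in the first run alone (38 arrays) and in the later runs alone (22 arrays). It was 5 after renewed quantile normalization, 6 without low-correlation arrays and 3 without the arrays high in lymphocyte markers, an alternative chosen after seeing the data, as was leaving out both near-identical pairs of brain and eye arrays. Leaving out 1 array at a time gave counts from 2 to 7. The share of all genes called moved as well. It was 1.66% in the reported fit, 4.18% with array quality weights, 0.115% in the first run and 0.191% in the later runs. That share is not given beside the other counts here, so a shift of the members alone cannot be read from them. With array quality weights H21 against N21 in lung gave 3, and lung minus brain and lung minus eye 2 each, against 0. Members with all 4 hypoxia means below both normoxia means numbered 13 in lung in the first run against 22, and in eye 1 in the first run, 1 in the later runs and 1 with the arrays of another tissue included, against 2. Those order counts were also an alternative added after seeing the data. The cause of the shifts in these counts was not tested. Of the 12 alternatives for the lung count, 5 fell outside 1.5 times the reported 4. In brain and eye 0 members were called in every comparison and under every alternative run, which says nothing about stability, since the reported counts were 0. Mcm6 ran from -0.40 to -0.20, Mcm7 from -0.33 to -0.16, Mcm5 from -0.40 to -0.16 and Pole from -0.34 to -0.23 over 13 settings, below 0 in each. Arrays with the same replicate number correlated in their deviations by 0.157 in lung, 0.111 in brain and 0.078 in eye on average, against -0.014, -0.007 and -0.006 for different numbers. Of these same-numbered pairs 77 of 139, 73 of 134 and 52 of 131 passed 0.1, short of every pair, and the labels do not say that a number marks a shared mouse, litter or day, so the numbers were not taken to pair the arrays. With the replicate number as a block the lung count was 6.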
